A study of Mus musculus with 4 samples.

Results

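The genes described here are 9 that link p53, or signals that overlap with it, to nutrient sensing and metabolism: the sestrins Sesn1, Sesn2 and Sesn3, the mTORC1 inhibitor Ddit4, the sugar phosphatase Tigar, the epoxide hydrolase Ephx1, the carbonyl reductase Dcxr, the glutaminase Gls2 and the cytochrome c oxidase assembly factor Sco2. They were chosen with earlier results of these data known and taken by symbol as a fixed list. All 9 were found among the 55487 genes of the deposited tables. The RNA came from mouse astrocytes in primary culture. By their labels, the cells were wild type for OASIS or OASIS deficient and were either untreated or exposed to doxorubicin (1 µg/ml for 1 h, on day 5 after confluence, then 24 h in fresh medium). Doxorubicin traps topoisomerase II on DNA and leaves strand breaks. With 1 library for each genotype and treatment, 4 in all, single libraries are compared without a replicate. OASIS is the product of Creb3l1, a membrane-bound transcription factor of the endoplasmic reticulum. All cultures were grown in medium with fetal bovine serum. The labels do not say which allele makes the cells deficient, how old the animals were or how many contributed to a culture.

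Sestrins are stress-induced proteins. They bind the GATOR2 complex, which releases GATOR1, the inhibitor of the Rag GTPases, and so lowers the activity of mTORC1, the kinase complex that drives growth when amino acids are present. SESN2 is also a sensor of leucine, and its gene responds to p53, to ATF4 in the integrated stress response and to NRF2 in oxidative stress. SESN1 is the classical p53-induced sestrin, and SESN3 is better known as a target of FOXO factors. DDIT4, also called REDD1, restrains mTORC1 through the TSC complex and is induced by hypoxia, glucocorticoids and DNA damage. TIGAR removes fructose 2,6-bisphosphate and so turns glucose from glycolysis to the pentose phosphate route, GLS2 converts glutamine to glutamate in mitochondria, and SCO2 delivers copper to cytochrome c oxidase. EPHX1 hydrolyses epoxides of drugs and pollutants in the endoplasmic reticulum, and DCXR reduces dicarbonyls and L-xylulose with NADPH.

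The label checks went in different directions for genotype and treatment. Creb3l1 had 966 and 636 counts in the libraries labelled wild type and 260 and 235 in those labelled deficient (untreated first), a log2 fold change of -1.46 (SE 0.27, adjusted p 0.000973 by edgeR's quasi-likelihood test). Xist, expressed from the inactive X of female cells, had 1 and 0 counts in the untreated libraries and 2547 and 2742 in those labelled doxorubicin, while 4 genes of the Y chromosome (Ddx3y, Eif2s3y, Kdm5d, Uty) ranged from 353 to 1567 counts in the untreated libraries and were at 0 in both labelled doxorubicin. A doxorubicin difference and a difference between male and female cultures cannot be told apart here. Whether labels were exchanged between libraries was not tested; the treatment labels are used as given, and an exchange would change what each treatment value stands for. Cdkn1a, the p21 gene and a target of p53, had 25804 and 34221 counts in wild type and 3204 and 3926 in deficient. Whether p53 activity itself differed was not tested. Total counts ran from 17481188 to 22559613, and the limit for a gene with no reads, taken as 3 counts, was 0.131 to 0.174 CPM (counts scaled to library size with TMM factors). The astrocyte identity of the cultures was checked on 12 markers, of which 1 was at 0 in 1 library; their summed level, untreated first, was 4003 and 3867 CPM in the wild-type libraries and 11317 and 10020 CPM in the deficient ones. Gfap alone made up 1140.3 and 1119.8 CPM of these sums in wild type and 6589 and 5168 CPM in deficient, and the other 11 markers summed to 2862 and 2747 against 4729 and 4852 CPM.

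Of the 9 genes, 8 reached a mean of 1 CPM over the 4 libraries and entered the tests, and Gls2, at a mean of 0.819 CPM, did not. For these 8, the deficient pair of libraries lay wholly above or wholly below the wild-type pair in every case, 2 above and 6 below, but the same was true of 62.0% of the 15596 genes tested (31.2% above and 30.8% below). In an additive model of genotype and treatment, edgeR's quasi-likelihood test, Benjamini-Hochberg adjusted over all 15596 genes, called 3 members lower in deficient (Sesn2, Ephx1 and Dcxr) and 2 higher (Sesn1 and Sesn3). The corresponding shares of all genes were 10.6% lower and 12.6% higher. Because the members were chosen with earlier results of these data known, a difference from these shares is no independent evidence. Before adjustment 7 of the 8 had a p under 0.05 by edgeR, as did 34.5% of all genes. The model leaves 1 residual degree of freedom, which is the difference between the treatment responses of the genotypes. Its p-values rest on that difference and on a spread shared over all genes, and measure no spread between replicate cultures. The gene counts fell when either deficient library was left out, to 628 higher and 548 lower without the untreated one and to 500 and 500 without the doxorubicin one, against 1972 and 1648 with all 4. Without either of them Sesn2, Ephx1 and Dcxr were still called lower, and the 2 higher members became 0. Such a fit sets 1 deficient library against the wild-type pair, takes the spread from that pair, which differs in treatment label and in the sex chromosome genes, and assumes that the lone library varies like it, so the calls that stayed are no replicate check.

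**Figure D1:**
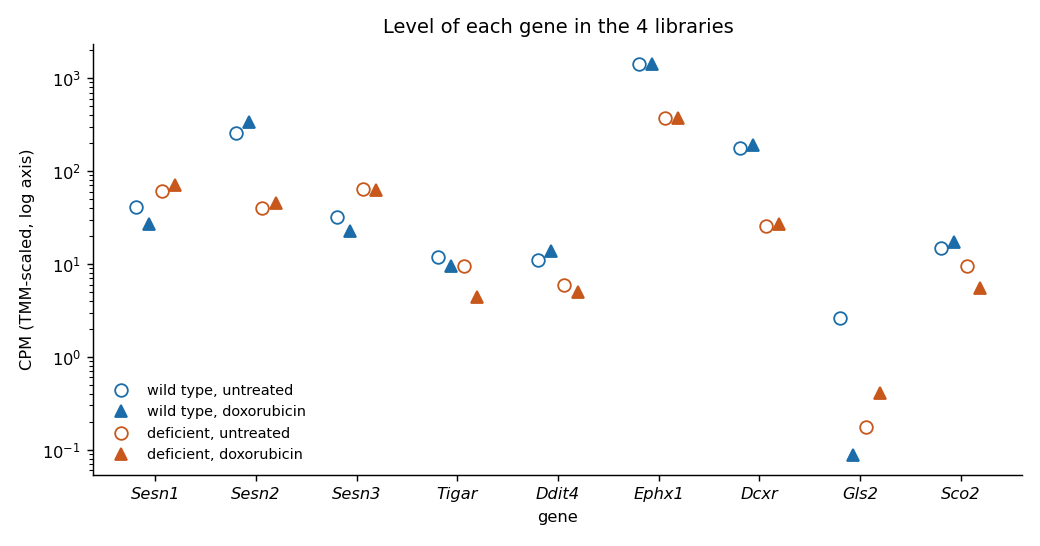
Level of each gene in the 4 libraries, in CPM on a log axis (1 point per library, no error bars since each group is 1 library). Sesn2, Ephx1 and Dcxr lie several-fold lower in both deficient libraries (orange) than in both wild-type ones (blue), Sesn1 and Sesn3 lie higher, and the point of Gls2 in wild type with doxorubicin rests on 2 counts.

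The bases just before the RefSeq start sites of the 5 called genes are shown because these genes went in opposite directions with the genotype label. They are RefSeq windows of up to 250 bases on GRCm38.p6, printed 5′ to 3′ on the strand of the gene and without any part that lies in an annotated exon. Capitals mark the CCAAT box on either strand (CCAAT or ATTGG) and, in Sesn1, a match to the p53 decamer, the 10-base unit of which a p53 response element holds a pair; the CCAAT box was chosen for capitals after the matches had been seen. The windows are chr4:132510502-132510706 (minus strand) for Sesn2, chr1:181017570-181017819 (minus) for Ephx1, chr11:120727285-120727534 (minus) for Dcxr, chr10:41887189-41887438 (plus) for the second start of Sesn1, and chr9:14276051-14276300 (plus) for Sesn3.
Sesn2: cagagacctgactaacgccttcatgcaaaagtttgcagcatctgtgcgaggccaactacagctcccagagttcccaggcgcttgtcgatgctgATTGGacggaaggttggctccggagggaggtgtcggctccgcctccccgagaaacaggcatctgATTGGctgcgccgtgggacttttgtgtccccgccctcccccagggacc
Ephx1: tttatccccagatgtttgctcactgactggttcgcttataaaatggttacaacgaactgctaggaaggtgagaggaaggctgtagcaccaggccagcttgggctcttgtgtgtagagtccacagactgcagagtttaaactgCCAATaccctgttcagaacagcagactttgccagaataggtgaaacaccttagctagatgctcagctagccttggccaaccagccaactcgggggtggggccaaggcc
Dcxr: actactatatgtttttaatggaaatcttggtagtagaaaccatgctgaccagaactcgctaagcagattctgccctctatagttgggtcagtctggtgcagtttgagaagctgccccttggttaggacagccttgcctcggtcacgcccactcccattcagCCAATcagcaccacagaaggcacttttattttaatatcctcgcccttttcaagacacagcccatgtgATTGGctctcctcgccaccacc
Sesn1: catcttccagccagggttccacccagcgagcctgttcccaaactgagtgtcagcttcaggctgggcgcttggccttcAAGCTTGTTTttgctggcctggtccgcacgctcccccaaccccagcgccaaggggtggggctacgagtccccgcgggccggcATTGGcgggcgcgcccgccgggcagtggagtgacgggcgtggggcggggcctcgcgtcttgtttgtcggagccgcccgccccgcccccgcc
Sesn3: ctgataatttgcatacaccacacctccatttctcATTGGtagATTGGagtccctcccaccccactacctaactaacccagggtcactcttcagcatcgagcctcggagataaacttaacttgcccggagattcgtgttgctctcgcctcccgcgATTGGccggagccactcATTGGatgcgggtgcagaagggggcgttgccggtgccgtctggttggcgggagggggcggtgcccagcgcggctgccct

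Windows were given for 8 of the 9 genes, 9 windows in all because Sesn1 has 2 starts. The search covered all 250 bases before each RefSeq start, also those left out of the printed sequences because they lie in exons of GENCODE transcripts; the windows of Tigar and of the first Sesn1 start gave no printable stretch. The CCAAT box, searched on both strands, was in 8 of the 9 windows, against 33.8% of all 32851 windows of that length. By gene it was in 7 of the 8, and outside annotated exons in 6, since every match of Tigar lay in one. Whether this share exceeds that of all windows was not tested. Sesn3 held 4 matches, at -216, -208, -96 and -79 bases from its start, and Sco2 held none. The p53 decamer was matched once, as AAGCTTGTTT at -173 before the second start of Sesn1, against 7.13% of all windows. Sesn2 held TGACNNNGC, the core of the antioxidant response element, as TGACAGAGC at -36 (10.2% of all windows), and Tigar held the CRE core TGACGT at -56 (6.47%). Both of these matches lay in annotated exons, and the one of Sesn2 is therefore not in its printed sequence. TGATGNAAT, a form of the amino acid response element, was in none of the 9 windows (0.816% of all). The hypoxia response core GCGTG was in 4 of the 9 windows (28.2% of all windows). These belong to 4 genes, 3 of them with a match outside exons. The GC box GGGCGG was in 7 of the 9 windows (32.7%), of 6 genes, 4 of them with a match outside exons. The shares of all windows were counted without regard to exons. Only Ephx1 held TATAAA (12.4% of all windows), at -214. Its GC content was 51.2% and that of Dcxr 48.8%, beside a median of 52.4% over all windows, while Sesn2 had 63.2%, Sesn3 59.6% and the printed Sesn1 window 71.2%. A match is a description of the letters, and p53 sites outside these windows were not searched.

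Among the sestrins, Sesn2 (ENSMUSG00000028893.8, GRCm38 chromosome 4, 132492032 to 132510501, minus strand) was far lower in both deficient libraries. Wild type had 5091 counts untreated and 7669 with doxorubicin, and deficient had 684 untreated and 895 with doxorubicin. The wild-type levels were 256 and 335 CPM and the deficient ones 39.7 and 45.2 CPM. Both deficient libraries were thus below both wild-type ones by a wide gap: even the closest pair, wild type untreated against deficient with doxorubicin, differed 5.65-fold (95% counting interval 5.26 to 6.07). Deficient was 6.43-fold lower than wild type without treatment (5.94 to 6.98) and 7.40-fold lower after doxorubicin (6.91 to 7.94). The additive fit gave a log2 fold change of -2.79 (SE 0.14, adjusted p 1.09e-09 by edgeR), which ranked 25 of 15596 by p. Intervals are exact conditional binomial intervals and cover counting error only. In the annotation Sesn2 overlaps Gm12981 on the same strand over 6089 bases, and Gm12981 had at most 16 counts in any library.

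Sesn1 (ENSMUSG00000038332.13, chromosome 10, 41809935 to 41908424, plus strand) went the other way. It had 827 and 610 counts in wild type (untreated, then doxorubicin) and 1060 and 1394 in deficient. In CPM these were 41.5 and 26.6 against 61.6 and 70.5, so the deficient libraries were the higher ones and the groups did not overlap. Deficient was 1.48-fold higher without treatment (1.35 to 1.63) and 2.65-fold higher after doxorubicin (2.40 to 2.91), and the additive log2 fold change was 0.99 (SE 0.23, adjusted p 0.00473 by edgeR). All neighbours in the order of the 4 libraries differed by more than counting error. The call was lost without the deficient untreated library (adjusted p 0.0887 by edgeR) and without the deficient doxorubicin library (0.194), and also in limma on the deposited TPM values (0.0668, log2 fold change 0.76).

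Sesn3 (ENSMUSG00000032009.8, chromosome 9, 14275067 to 14333101, plus strand) was also higher in deficient. Wild type had 637 and 515 counts and deficient 1092 and 1249. The levels were 32.0 and 22.5 CPM in wild type and 63.4 and 63.1 CPM in deficient, and the deficient libraries did not differ beyond counting error (ratio 1.00, 0.925 to 1.09). Deficient was 1.98-fold higher without treatment (1.80 to 2.19) and 2.81-fold higher after doxorubicin (2.53 to 3.12). The additive log2 fold change was 1.24 (SE 0.22, adjusted p 0.000607 by edgeR). It missed the threshold without the deficient untreated library (adjusted p 0.0519 by edgeR), without the deficient doxorubicin library (0.0624) and in limma on TPM (0.0903, log2 fold change 0.92). The deposited TPM moved the median of all genes by -0.17 in the untreated genotype pair and by -0.11 in the doxorubicin pair, and relative to that median Sesn1 stood at 0.54 and 1.28 on the log2 scale and Sesn3 at 0.91 and 1.22.

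Levels of different genes can be set side by side in TPM, which is scaled by transcript length. The 3 sestrins summed to 129 TPM untreated and 144 TPM with doxorubicin in wild type, and to 51.3 and 57.8 TPM in deficient. Sesn2 made up 78.6% and 87.9% of that sum in wild type but 26.9% and 27.8% in deficient. Sesn1 made up 17.6% and 9.71% in wild type but 56.4% and 57.2% in deficient, and Sesn3 3.75% and 2.38% against 16.7% and 15.0%. The leading sestrin message was therefore Sesn2 in both wild-type libraries, at 4.47 and 9.05 times the TPM of Sesn1, and Sesn1 in both deficient libraries, at 2.10 and 2.05 times the TPM of Sesn2. Sesn3 was the lowest of the 3 in TPM in every library, from 3.43 to 8.66 TPM. These shares and this order depend on the transcript length used, and the coding transcripts of Sesn3 run from 1700 to 9125 bases. In CPM, which is not scaled by length, Sesn3 lay above Sesn2 in both deficient libraries (63.4 and 63.1 against 39.7 and 45.2, untreated first). In deficient untreated it also lay slightly above Sesn1 (61.6 CPM).

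**Figure D2:**
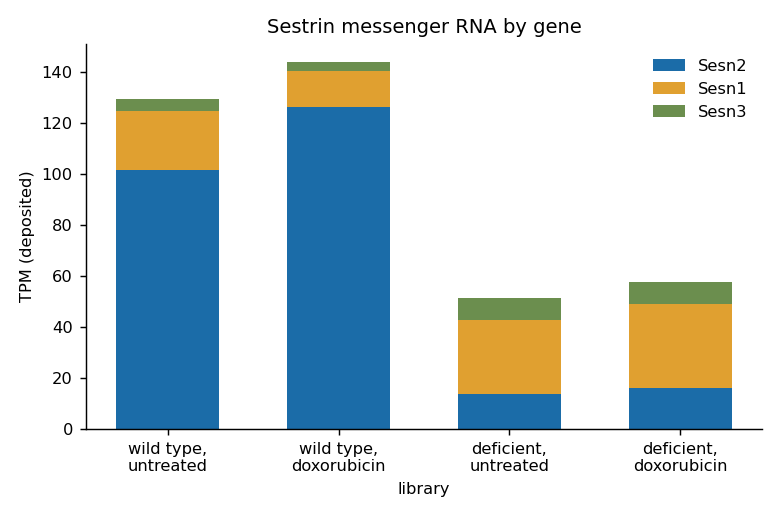
Deposited TPM of Sesn1, Sesn2 and Sesn3 stacked for each of the 4 libraries (1 library per bar, axis from 0). The bars for wild type reach 129 and 144 TPM and are mostly Sesn2, whereas those for deficient reach 51.3 and 57.8 TPM and are mostly Sesn1.

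The summed levels of several cell type marker lists also moved with the genotype label. All 12 astrocyte markers were tested, and 9 of 12 rose in deficient, among them Gfap, the astrocyte intermediate filament, with a log2 fold change of 2.37 (adjusted p 6.58e-11 by edgeR). Only Gjb6 was at 0, in wild type untreated. Of 12 oligodendrocyte lineage markers 10 rose, and their summed level, untreated first as in the sums that follow, was 475 and 348 CPM in the wild-type libraries and 1088 and 1086 CPM in the deficient ones. Sox10, Mobp and Mog were at 0 in wild type with doxorubicin and Mog in wild type untreated. Neuron markers summed to 234 and 205 CPM in wild type and 416 and 444 CPM in deficient, and those of endothelium and pericytes to 19.9 and 22.5 against 9.64 and 7.63 CPM. Microglia markers instead were lower with doxorubicin, at 882 and 768 CPM in the wild-type and deficient libraries against 1231 and 1131 CPM untreated. Fibroblast and meningeal markers summed to 943 to 1174 CPM and ependymal markers to 120 to 158 CPM. Single ependymal markers ran from -2.38 to 2.81 on the log2 scale for genotype, with 1 called higher and 1 lower. The part of these differences in the values of the 9 genes was not tested, and in bulk RNA fewer cells of a type and less RNA per cell cannot be told apart.

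Both detoxifying enzymes were lower in deficient, and by nearly the same ratio with and without doxorubicin. Ephx1 (ENSMUSG00000038776.13, chromosome 1, 180976210 to 181020904, minus strand) was the most abundant of the 9 genes by TPM, at rank 91 of 55487 genes in wild type untreated and rank 566 in deficient untreated. Wild type had 28623 and 32585 counts and deficient 6433 and 7292, or 1437 and 1423 CPM against 374 and 369 CPM. The 2 wild-type libraries did not differ beyond counting error (ratio 1.01, 0.994 to 1.03), and neither did the 2 deficient ones (1.01, 0.980 to 1.05). Deficient was 3.85-fold lower without treatment (3.74 to 3.95) and 3.86-fold lower after doxorubicin (3.76 to 3.96), with an additive log2 fold change of -1.95 (SE 0.092, adjusted p 6.76e-10 by edgeR).

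Dcxr (ENSMUSG00000039450.11, chromosome 11, 120725399 to 120727281, minus strand) had 3511 and 4371 counts in wild type and 445 and 530 in deficient. These were 176 and 191 CPM against 25.9 and 26.8 CPM, and the deficient libraries differed by no more than counting error (ratio 1.04, 0.912 to 1.18). Deficient was 6.82-fold lower without treatment (6.18 to 7.54) and 7.12-fold lower after doxorubicin (6.51 to 7.81). The additive log2 fold change was -2.80 (SE 0.15, adjusted p 3.36e-09 by edgeR). In TPM, Dcxr went from 397 and 407 in wild type to 50.4 and 53.8 in deficient. Sesn2, Ephx1 and Dcxr were called lower under every alternative listed in the closing section, with the limit given above for the fits that leave out a library.

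The other tested members had lower counts and missed the threshold. Ddit4 (ENSMUSG00000020108.4, chromosome 10, 59949669 to 59951834, minus strand), the REDD1 gene, had 220 and 313 counts in wild type and 101 and 99 in deficient. These were 11.0 and 13.7 CPM against 5.87 and 5.01 CPM, with no overlap between genotypes and no difference beyond counting error between the deficient libraries (ratio 1.17, 0.880 to 1.56). Deficient was 1.88-fold lower without treatment (1.48 to 2.41) and 2.73-fold lower after doxorubicin (2.17 to 3.46). The additive log2 fold change was -1.18 (SE 0.45) with an adjusted p of 0.0700 by edgeR, which became 0.0383 in limma-voom, 0.0408 in limma on TPM and 0.0349 without the wild-type untreated library. Its paralog Ddit4l (REDD2), which also inhibits mTORC1, had 13467 and 16017 counts in wild type and 3232 and 3496 in deficient, and its log2 fold change was -1.92 (adjusted p 4.05e-09 by edgeR).

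Sco2 (ENSMUSG00000091780.3, chromosome 15, 89371637 to 89373846, minus strand) had 294 and 392 counts in wild type and 165 and 109 in deficient. In CPM the wild-type libraries were at 14.8 and 17.1, not different beyond counting error (ratio 1.16, 0.995 to 1.35), and the deficient ones at 9.59 and 5.51. Deficient was 1.54-fold lower without treatment (1.27 to 1.87) and 3.11-fold lower after doxorubicin (2.51 to 3.88). The additive log2 fold change was -1.13 (SE 0.41), with an adjusted p of 0.0598 by edgeR and of 0.0227 to 0.0491 under 5 of the alternatives. The gene overlaps Ncaph2 on the opposite strand over 1190 bases and Tymp on its own strand over 1916 bases. Ncaph2 had 1789 and 3138 counts in wild type and 2506 and 3149 in deficient, and Tymp 45 to 67, and since the libraries carry no strand, reads of the shared stretches cannot be told apart.

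Tigar (ENSMUSG00000038028.9, chromosome 6, 127085116 to 127109557, minus strand) had 238 and 220 counts in wild type and 162 and 87 in deficient. Its levels were 11.9 and 9.61 CPM in wild type and 9.41 and 4.40 CPM in deficient, so the genotypes were separated only by the narrow step between wild type with doxorubicin and deficient untreated (ratio 1.02, 0.830 to 1.26). The additive log2 fold change was -0.73 (SE 0.45, adjusted p 0.281 by edgeR). Among the 8 tested members, Tigar was also the one whose counts and TPM did not move together. Its count per TPM, a measure of the effective transcript length used by the authors' software, was lowest in deficient untreated. Relative to that library it was 1.28 in the untreated and 2.02 in the doxorubicin library of wild type, and 1.47 in deficient with doxorubicin. The ratio spanned 2-fold or more in 1 of the 8 tested members and in 4.68% of the 15122 genes with a count in every library, and the other tested members spanned at most 1.05-fold. The annotation gives Tigar a coding transcript of 3651 bases and a transcript of 855 bases marked for nonsense-mediated decay. In TPM the deficient over wild-type log2 ratio was -0.16 without treatment and -0.55 after doxorubicin, against -0.31 and -0.97 in CPM.

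**Figure D3:**
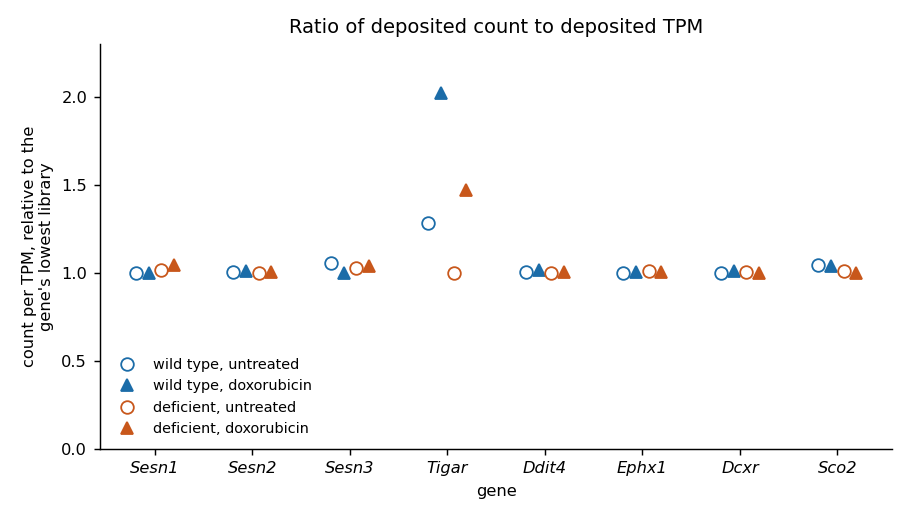
Deposited count divided by deposited TPM for the 8 tested genes, corrected for the library's typical ratio and shown relative to the lowest library of each gene (1 point per library). Tigar reaches 2.02 in wild type with doxorubicin while the other 7 stay within 1.05.

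Gls2 (ENSMUSG00000044005.13, chromosome 10, 128194457 to 128210004, plus strand) was near the limit of detection. Wild type had 52 counts untreated and 2 with doxorubicin (2.61 and 0.0873 CPM), and deficient 3 and 8 (0.174 and 0.404 CPM). In scaled counts only wild type untreated stood apart, and the lower 3 libraries did not differ from their neighbours beyond counting error. Wild type untreated was 29.9-fold above wild type with doxorubicin (7.87 to 253) and 15.0-fold above deficient untreated (4.85 to 74.99), each resting on 1 library. In TPM, untreated first, Gls2 was at 1.48 and 0.084 in wild type and at 0.153 and 0.66 in deficient. Counts and TPM of Gls2 did not move together either. Its count per TPM in wild type untreated was 3.22 relative to deficient with doxorubicin, the lowest library. The last 97 bases of Gls2 overlap Spryd4 on the opposite strand, which had 130 to 536 counts.

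By size alone, counting a log2 ratio of at least 1 in either direction after adding 1 CPM, 3 members were lower in deficient without treatment (Sesn2, Ephx1 and Dcxr; 10.2% of all genes were) and 0 were higher (9.79% of all genes). After doxorubicin 5 were lower (9.55% of all genes), Ddit4 and Sco2 joining them, and 2 were higher (10.7% of all genes), Sesn1 and Sesn3. With 5 CPM added in place of 1, Ddit4 fell short at -0.90. Sesn3 without treatment, at a log2 ratio of 0.97, and Tigar after doxorubicin, at -0.97, fell just short of the limit.

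**Figure D4:**
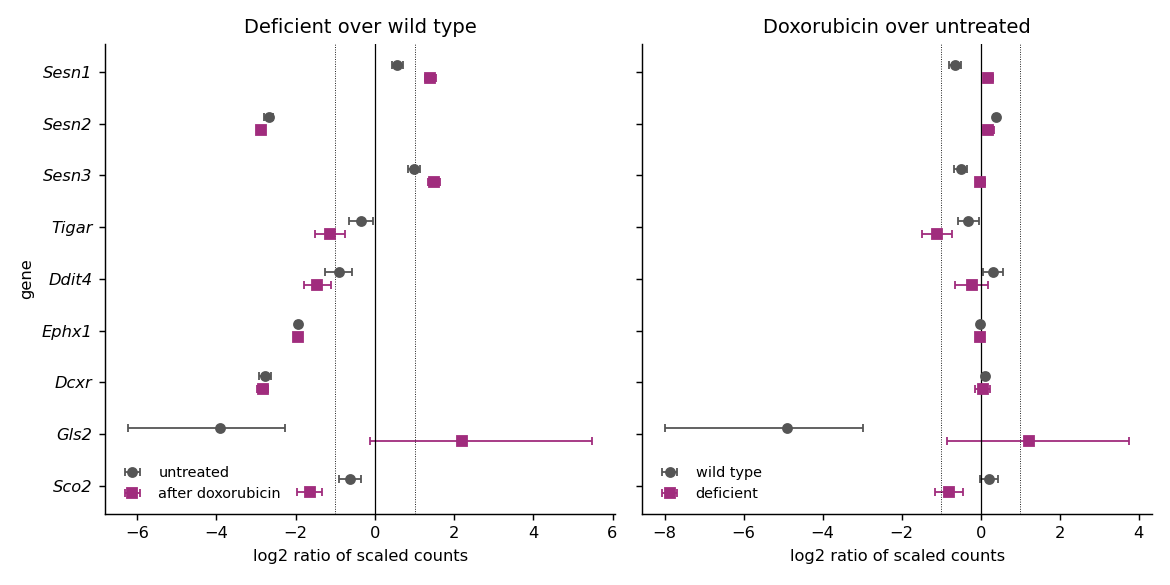
Log2 ratios of scaled counts between single libraries, deficient over wild type (left) and doxorubicin over untreated (right), with 95% counting intervals; dotted lines mark a 2-fold difference. In the left panel Sesn2, Ephx1 and Dcxr lie near -2 to -3 in both treatments, and in the right panel the intervals of most genes lie within 1 of 0, apart from Tigar and Sco2 in deficient and Gls2.

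The next comparison asks how these genes differ after doxorubicin in each genotype, with the sex of the cultures split the same way as the treatment. By size, 0 of the 8 members were higher or lower with doxorubicin in wild type (4.08% of all genes higher, 5.45% lower), and 0 in deficient (1.58% and 1.93%). In wild type, Sesn2 was 1.31-fold higher with doxorubicin (1.26 to 1.36), Ddit4 1.24-fold (1.04 to 1.48) and Dcxr 1.08-fold (1.04 to 1.13). Sesn1 instead was 1.56-fold lower (1.40 to 1.73), Sesn3 1.42-fold lower (1.26 to 1.60) and Tigar 1.24-fold lower (1.03 to 1.50). In deficient, Sesn2 and Sesn1 were both 1.14-fold higher (1.03 to 1.26 and 1.06 to 1.24). Tigar was 2.14-fold lower there (1.64 to 2.81) and Sco2 1.74-fold lower (1.36 to 2.24), and with 0.5 CPM added in place of 1, or on TPM, Tigar alone passed the 2-fold limit. The counting intervals of Sesn3, Ddit4, Ephx1 and Dcxr in deficient, and of Ephx1 and Sco2 in wild type, included 1.

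In the additive fit of treatment, edgeR's quasi-likelihood test called 0 members, against 0.0192% of all genes higher and 0.141% lower, and 1 member, Sesn2, had an unadjusted p under 0.05 (0.0387; 5.54% of all genes had one). Its log2 fold change was 0.29 (SE 0.13, adjusted p 0.865 by edgeR). DESeq2, limma-voom and limma on TPM also called 0 members. Tigar had the largest change of the 8, -0.70 (SE 0.45, adjusted p 0.944 by edgeR). The difference between the responses, deficient minus wild type, reached 2-fold in 0 members (7.66% of all genes higher, 6.05% lower). The largest were Sco2 at -0.90, Sesn1 at 0.81 and Tigar at -0.66 on the log2 scale, and with 1 library per group these differences have no test.

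The pathways around each gene are given next by lists written for this purpose, with counts of genes called in the additive genotype fit; over all 15596 genes the median log2 fold change was -0.01, and 12.6% rose and 10.6% fell. The median of the 8 members was -1.15. Downstream of the sestrins and DDIT4, 38 genes of GATOR1, GATOR2, the Rag and Ragulator complexes, TSC, mTORC1 and AMPK had a median of -0.10, with 3 higher and 4 lower. Deptor, an inhibitory subunit of mTOR complexes, fell by 2.32 on the log2 scale (250 and 513 counts in wild type, 67 and 57 in deficient; adjusted p 0.0017 by edgeR), and Flcn, the folliculin gene that acts on the Rag GTPases, fell by 1.14. Prkag2, a regulatory subunit of AMPK, rose by 1.31. Kptn, a subunit of the KICSTOR complex that tethers GATOR1, was at 1.11 and did not pass (adjusted p 0.1 by edgeR).

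Around TIGAR, 16 of 18 genes of the phosphofructokinase step, hexokinase and the pentose phosphate route were tested, with a median of -0.10, 2 higher and 4 lower. The oxidative pentose phosphate genes Pgd and G6pdx fell by 1.40 and 0.70 on the log2 scale, and Rpe, the ribulose phosphate epimerase, fell by 0.97. Pfkm and Pfkp, which encode phosphofructokinase subunits, rose by 0.74 and 0.52. Pfkfb3, whose enzyme makes the sugar phosphate that TIGAR removes, had 1117 and 997 counts in wild type and 1058 and 1503 in deficient, a log2 fold change of 0.47 that did not pass (adjusted p 0.108 by edgeR).

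Around GLS2, 14 of 15 genes of glutamine, glutamate and glutathione synthesis had a median of 0.01, with 3 higher and 5 lower. The genes of glutathione synthesis were among those that fell: Gss, glutathione synthetase, by 2.22 (4512 and 5403 counts in wild type, 859 and 970 in deficient), and both subunits of glutamate-cysteine ligase, Gclc at -1.49 and Gclm at -1.38. Slc1a5, a glutamine transporter, fell by 1.46 (adjusted p 0.043 by edgeR). Around SCO2, 18 of 19 genes of cytochrome c oxidase assembly had a median of 0.01, with 2 higher and 1 lower. Sco1, the partner of SCO2 in copper delivery, fell by 1.04 (434 and 359 counts in wild type, 158 and 174 in deficient; adjusted p 0.047 by edgeR), while the assembly factors Coa7 and Cox19 rose by 1.30 and 0.67.

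Around EPHX1 and DCXR, 14 of 16 epoxide hydrolases, carbonyl reductases and genes of the glucuronate and xylulose route were tested, with a median of -0.07, 1 higher and 6 lower. Xylb, the xylulokinase that acts after DCXR, fell by 1.53, and lower values were also called for the aldo-keto reductase gene Akr1b8 (-1.30) and the carbonyl reductase gene Cbr3 (-1.12). Ugdh, the UDP-glucose dehydrogenase at the head of the glucuronate route, rose by 1.21. Ephx2, the soluble epoxide hydrolase, had 150 and 116 counts in wild type and 239 and 237 in deficient, a log2 fold change of 1.06 that did not pass (adjusted p 0.0867 by edgeR). Counts of Akr1b8 are uncertain because it has close paralogs that can share reads.

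Of 16 other metabolic genes that have been linked to p53, 1 was higher and 6 lower, with a median of -0.16. Aldh4a1, of proline breakdown, fell by 1.64 on the log2 scale, and Lpin1, a phosphatidate phosphatase, by 1.62, while Pank1, a kinase of coenzyme A synthesis, rose by 1.37. Fdxr, the ferredoxin reductase gene, had 216 and 498 counts in wild type and 240 and 337 in deficient. The contrast with p53 targets outside metabolism was wide: all 15 tested fell, with a median of -2.71, and the range ran from -5.66 (Pmaip1, the NOXA gene) to -0.83. Perp was at -4.24, Eda2r at -3.77 and Trp53inp1 at -3.28. Both lists were written with the earlier results of these libraries known. Neither their directions nor the contrast between them is independent evidence.

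**Figure D5:**
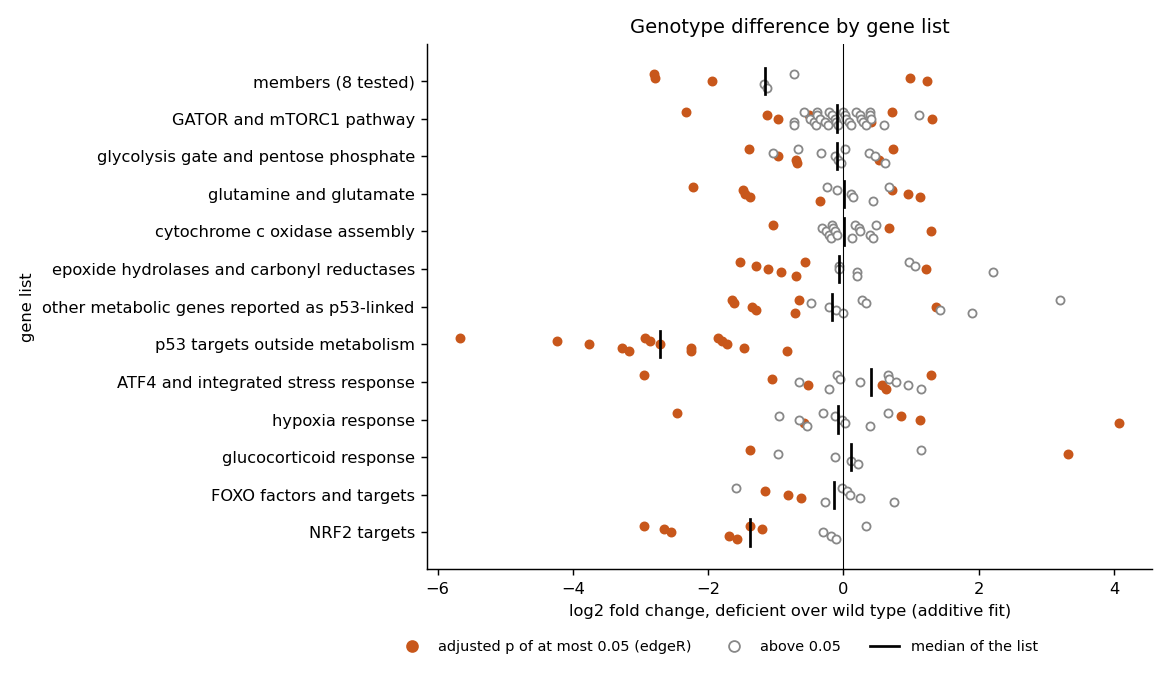
Additive log2 fold change, deficient over wild type, of every tested gene in each list (1 point per gene; filled where the adjusted p by edgeR is at most 0.05; bars mark the median of the list). The p53 targets outside metabolism (median -2.71) and the NRF2 targets (-1.38) lie to the left, whereas the lists around the individual enzymes have medians from -0.10 to 0.01. The other metabolic genes linked to p53 have a median of -0.16. All lists were written with earlier results of these data known.

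The other regulators reported for these genes were described in the same way, by lists also written with earlier results of these data known. Of 11 genes of the NRF2 list, which holds NRF2, its inhibitor KEAP1 and targets that respond to oxidative stress, 7 fell and 0 rose, with a median of -1.38. Examples are the cystine transporter Slc7a11 at -2.96, the quinone reductase Nqo1 at -2.66, the sulfiredoxin Srxn1 at -2.55 and the thioredoxin reductase Txnrd1 at -1.69. Nqo1 had 17182 and 18240 counts in wild type and 2660 and 2203 in deficient. Of 16 ATF4 genes of the integrated stress response, 3 rose and 3 fell, with a median of 0.41; Mthfd2, of mitochondrial folate metabolism, rose by 1.29 and Vldlr fell by 1.06, and Slc7a11 belongs to both lists. Of 14 hypoxia genes, 3 rose and 2 fell (median -0.07), with Egln1, an oxygen-sensing prolyl hydroxylase, up by 1.14, Ndrg1 up by 0.86 and the adrenomedullin gene Adm down at -2.45. Of 7 glucocorticoid genes, 1 rose and 1 fell (median 0.11): Mt2, a metallothionein, rose by 3.32 and the kinase gene Sgk1 fell by 1.37. Of 10 FOXO genes, 0 rose and 3 fell (median -0.15), among them the factors Foxo3 at -1.16 and Foxo1 at -0.63 and the coregulator Cited2 at -0.82. With doxorubicin, 0 of the 184 genes of these pathway lists passed the additive test by edgeR, limma-voom, limma on TPM or DESeq2, and 9 had an unadjusted p under 0.05 by edgeR.

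Genes with the most similar pattern over the 4 libraries were found by the root-mean-square distance of centred log2 levels among 11227 named protein-coding genes, as a description with no test. Nearest to Sesn2 were Palm3 (0.08), Cdkn1a (0.09) and Efna3 (0.10), with Efna3 at 249 and 356 counts in wild type and 25 and 30 in deficient. Nearest to Dcxr were Cdkn1a (0.06), Ccng1, the cyclin G1 gene and a p53 target (0.06), and Palm3 (0.08), so Sesn2 and Dcxr shared 2 of their 3 nearest genes. Nearest to Ephx1 were Ddit4l (0.04), Zfpm1 (0.05) and Sdc1 (0.06). Those of Sesn1 were Mad1l1, Gemin2 and Wscd1, those of Sesn3 Pcdhga3, Casc1 and Clasp2, those of Tigar Flrt2, Ly6e and Dhx37, those of Ddit4 Stard10, Aga and Mfge8, and those of Sco2 Qpctl, Gstp2 and Lyst. Gstp2 and Pcdhga3 have close relatives or shared exons that can share reads, so their counts are uncertain.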

How the data were processed

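RNA of 4 libraries of primary mouse astrocytes was measured, made with the SMART-Seq v4 kit per the labels' protocols; its libraries carry no strand information. The authors deposited an estimated count and a TPM value for each of 55487 genes per library, per the file headers. Per the submitters' processing notes the tool was DRAGEN and the build GRCm38; its version, the annotation release and any read filter are not given in the sources. The deposited counts carry no normalization, held fractions in 5810 to 6451 genes per library and were rounded; a count split between overlapping genes or transcripts can shift low genes. The deposited TPM values are scaled by transcript length and were used to compare genes with each other and as an alternative scale. Symbols and coordinates came from GENCODE vM21 on GRCm38 by identifier (55141 matched, 346 did not).

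Counts were scaled to CPM with TMM factors (0.98 to 1.02, edgeR 4.0.16 in R 4.3.3). Ratios between single libraries used 1 added CPM, which understates changes of low genes, and carry no p-value; exact conditional binomial 95% intervals (scipy 1.17.1) cover counting error only, since the libraries have no molecular identifiers and reads may repeat a molecule. Genotype and treatment were tested in additive models with edgeR's quasi-likelihood test on 15596 genes with a mean of at least 1 CPM, adjusted over all of them, and called at an adjusted p of at most 0.05. The prior degrees of freedom were 14.3. The SE given with an edgeR fold change is the absolute log2 fold change divided by the square root of the test's F statistic. It was worked back from the test and measures no spread between cultures. The code was run on simulated counts with a common dispersion and no treatment effect, unlike these libraries, so that run tells nothing about the calls made here. Alternatives were DESeq2 size factors, total counts, other minimums and pseudocounts, TPM, limma 3.58.1, limma-voom, DESeq2 1.42.0, models without the other factor, without genes on X and Y, and without each library.

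The 9 genes, the 12 pathway lists and the 7 cell type lists were chosen with earlier results of these data known. Named from each list were up to 4 genes with the largest genotype change and up to 2 with the largest doxorubicin change (mean of at least 5 CPM), fixed partners of the 9 genes, label checks, and the 3 genes nearest in pattern to each member that spanned at least 1 on the log2 scale. Some genes named by these rules are not reported here. Promoter windows of 250 bases and their motifs came from RefSeq sequences of GRCm38.p6. Bases after the RefSeq start, searched at first, were dropped; the searched windows still hold exon bases of other annotated transcripts, which the printed stretches leave out.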

Additional observations from a re-analysis of the deposited data

Results flagged for a closer look

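Sesn1 was flagged because its doxorubicin ratios pointed in opposite directions in the libraries of each genotype, each beyond counting error. It was 1.56-fold lower with doxorubicin in wild type (827 and 610 counts) and 1.14-fold higher in deficient (1060 and 1394 counts), a difference between the responses of 0.81 on the log2 scale. That is short of the 2-fold limit, which 7.66% of all genes passed upward and 6.05% downward. The difference of Sco2 was larger in size, at -0.90. The difference was not tested, since each group holds 1 library, and the libraries labelled doxorubicin and untreated also differ in sex chromosome genes.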

How the results depend on the processing

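The calls of Sesn2, Ephx1 and Dcxr in the genotype test kept their direction and side of the threshold in all alternatives, and Sesn1 and Sesn3 kept their direction. Of 224 alternative values of single members in the additive tests, 196 kept direction and side of the threshold, 6 lost a call, 8 gained one and 14 changed sign. In the genotype test the members called higher fell from 2 to 0 with limma on TPM, and those called lower rose from 3 to 5 with limma-voom and with limma on TPM. Leaving out each library gave 500 to 2473 genes higher and 500 to 1734 lower, with 0 to 2 members higher; there the lone library of a genotype is assumed to vary like the other pair. Library sizes and TMM factors taken from the tested genes only, an alternative added after seeing the data, gave 2015 genes higher and 1702 lower and the same member counts.

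In the doxorubicin test the genes called higher and lower were 22 and 56 with DESeq2 size factors, 26 and 73 with a minimum mean of 5 CPM, 17 and 67 with limma-voom, 0 and 0 without the genotype term and 0 and 13 without genes on X and Y. Limma on TPM called 5 higher, DESeq2 6 higher and the fit without a minimum 10 lower. Leaving out each library called 0 in either direction. Those fits drop the genotype term and so mix genotype into the treatment contrast, and the sign then changed for Sesn1 (range -0.95 to 0.45, with 0.23), Sesn2 (-1.69 to 2.24), Sesn3 (-1.08 to 0.42), Ddit4 (-0.75 to 0.69), Ephx1 (-1.28 to 1.24), Dcxr (-1.90 to 2.05) and Sco2 (-1.14 to 0.49).

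By size, adding 5 CPM gave 763 genes higher and 643 lower for genotype untreated, 861 and 629 after doxorubicin, 83 and 143 for doxorubicin in wild type, 15 and 27 in deficient, and 306 and 174 for the difference of the responses. A minimum mean of 5 CPM gave 1015 and 880 for genotype untreated, 824 lower after doxorubicin, 244 and 365 for doxorubicin in wild type, 77 and 107 in deficient, and 600 and 387 for the difference. Without a minimum there were 1024 genes higher with doxorubicin in wild type and 1459 lower in the difference, and Gls2 made 1 member lower in the first and 1 higher in the second. With 0.5 CPM added, 407 genes were higher and 456 lower in the deficient doxorubicin pair, with 1 member lower (Tigar), as on TPM (1). The cause of these shifts was not tested, beyond the fewer or more genes counted under each minimum. No paired analysis was possible because each combination of genotype and treatment holds 1 library. Depth limits Gls2, whose lower 3 libraries held 2 to 8 counts, and Tigar, Ddit4 and Sco2, with 87 to 392.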
